A study of Mus musculus with 2 samples.

Results

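The nuclei described here are somatostatin (Sst) interneurons from samples of mouse cortex, selected by their transcripts. No gene of the selection marks a brain region, so nuclei of a neighbouring region in the tissue could be among them. A barcode, the droplet tag that stands for 1 nucleus, was a member when it met 5 conditions. At most 5% of its unique molecular identifiers (UMIs, 1 per captured RNA molecule) came from mitochondrial genes, and it held at least 2 UMIs of Gad1 and Gad2 together. It held at most 1 UMI of Slc17a7, at least 3 of Sst, and a UMI of at least 2 of Elfn1, Grin3a, Crhbp, Nxph1 and Sox6. Of 17501 barcodes, 228 met the rule, 130 in the first and 98 in the second of the 2 libraries. The study profiled single nuclei from frozen cortex of wild-type C57BL/6 mice with the 10x Genomics droplet platform, to follow transcripts in ageing. One sample came from mice aged 18 months and the other from mice aged 2 months, and each was a pool of 3 mice. No label ties a barcode suffix to an age, so the suffixes are called library 1 and library 2, values are set side by side, and no ages are compared. With 1 pool per age there were no replicates and no test was run, and the 95% intervals given here (exact Poisson for levels, Clopper-Pearson for shares) cover counting error only.

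Sst interneurons release GABA together with the peptide somatostatin and are best known in cortex for contacting the dendrites of pyramidal neurons, where they curb excitatory input. They arise, like the Pvalb interneurons, mainly from the medial ganglionic eminence of the embryonic forebrain, whereas Vip and most Lamp5 interneurons arise mainly from the caudal eminence. Several kinds are recognised, among them Martinotti cells, whose axons climb to the outermost layer, and rare long-range cells that make nitric oxide and neuropeptide Y.

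Somatostatin is the gene this selection turns on, and its promoter is the one in which the cAMP response element, a site bound by the factor CREB, is classically known. The 30 bases around that element are shown because the gene defines these nuclei. They were read 5′ to 3′ on the minus strand from the RefSeq promoter window of build GRCm38.p6, at chr16:23890874-23890903, and the capitals mark the motif TGACGTCA.

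Sst: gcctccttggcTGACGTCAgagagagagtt

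The motif began 48 bases before the RefSeq start of Sst, at base -48. GENCODE vM21 (mm10) places Sst at chromosome 16, 23889573 to 23890958, minus strand, and this stretch inside its 5′ untranslated region, so the annotations differ on where the transcript starts. The motif reads the same on both strands and occurred in 588 of 32851 RefSeq windows of the same length (1.79%). Of the 20 genes with the largest ratios in Sst nuclei, taken up further down, 14 had a window and 1, Kctd8, held the motif. Some of these genes had several windows, so this count of genes is not on the scale of the 1.79% of windows. A match describes letters only, and nothing about binding was measured.

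Depth was alike in the members of both libraries. Sst nuclei held a median of 8095.5 UMIs over 3093.5 genes in library 1 and of 8005.5 UMIs over 2884 genes in library 2, and their median mitochondrial shares were 0.774% and 0.697%. The libraries as a whole held 58108297 and 60547146 UMIs. Of the 16-base barcode sequences 19 occurred in both libraries, and 1 Sst nucleus was among them. Sst nuclei made up 1.51% (1.27 to 1.80) of barcodes within the mitochondrial limit in library 1 and 1.18% (0.963 to 1.44) in library 2, and these intervals overlapped. Of 1090 and 864 barcodes in the GABA gate, that is, with the Gad1, Gad2 and Slc17a7 limits met, they were 11.9% and 11.3%.

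The values that chose the members are a description and support nothing. Sst ranged from 3 to 64 UMIs per nucleus in library 1, with a median of 8, and from 3 to 80 in library 2, with a median of 9.5. The summed level of Sst was 1374 CPM (1306 to 1446; CPM are the UMIs of a gene scaled to a common total per class and library) in library 1 and 1608 (1524 to 1696) in library 2. Members held 33.7% and 33.8% of all Sst UMIs of their library. Sst UMIs were also found in nuclei that should lack the gene: 17.8% of 1656 excitatory nuclei in library 1 and 19.2% of 965 in library 2 had at least 1 Sst UMI, but 0.121% and 0.415% had 3 or more. A single Sst UMI thus did not set a nucleus apart from cells that should lack the gene.

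Among the other rule markers, Nxph1, which encodes a secreted ligand of neurexins, had a UMI in 100% of members in both libraries. Grin3a, an NMDA receptor subunit, was detected in 93.1% and 94.9%, and Sox6, a transcription factor of medial eminence interneurons, in 86.2% and 94.9%. Elfn1, a postsynaptic protein that shapes facilitating input onto Sst cells, was detected in 63.8% and 70.4%, and Crhbp, which binds corticotropin-releasing hormone, in 43.1% and 48.0%. Per nucleus the medians were 22.5 and 26.5 UMIs for Nxph1, 8 and 9 for Grin3a, 5 and 8 for Sox6, 1 and 1.5 for Elfn1 and 0 and 0 for Crhbp.

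Just inside the Sst limit lay 18 and 10 members with exactly 3 Sst UMIs. Just outside it lay 20 and 21 barcodes with 2 Sst UMIs that met all other conditions. Members with exactly 2 of the 5 other markers numbered 15 and 3, and barcodes with 1 marker that met the other limits numbered 3 and 2. Another 46 and 29 members carried 1 Slc17a7 UMI. Within the GABA gate, 40.8% and 41.1% of barcodes with no Sst UMI held at least 2 of the 5 markers, against 90% and 83.3% at 3 Sst UMIs and 97.7% and 98.7% at 6 or more. The 5 markers therefore accompanied Sst in most nuclei past the limit but were not restricted to them.

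**Figure D1:**
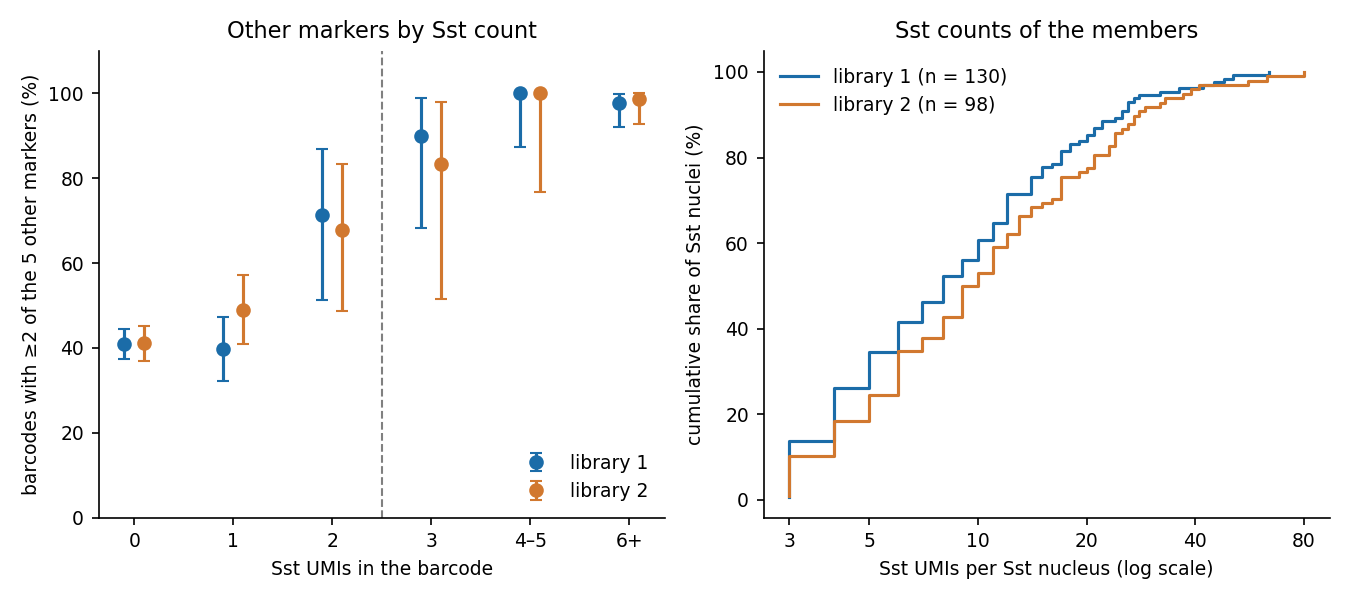
Left, percentage of barcodes in the GABA gate (y axis) with at least 2 of the 5 other markers, by Sst UMI count (x axis), with exact 95% intervals and a dashed line at the limit of the rule; right, cumulative percentage of Sst nuclei (y axis) by Sst UMIs per nucleus (log x axis). The marker percentage passes from 40.8% and 41.1% at 0 Sst UMIs to 97.7% and 98.7% at 6 or more, and the medians of the right curves are 8 and 9.5.

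The label was checked on genes the rule did not use. Lhx6, a homeobox factor of medial eminence interneurons, stood at 74.8 CPM (59.5 to 92.9) in Sst nuclei of library 1 and 63.5 (47.7 to 82.9) in library 2, against 3.03 and 0 in the Vip type. Satb1, a chromatin organiser needed for Sst interneuron maturation, stood at 477 and 353 CPM, against 69.7 and 32.7 in the Vip type and 126 and 94.1 in excitatory nuclei. Slc32a1, the vesicular GABA transporter, was at 139 and 114 CPM, against 5.33 and 4.57 in excitatory nuclei. Each stood above the Vip type and excitatory nuclei in both libraries. The Pvalb type was not set apart by these genes: Lhx6 stood there at 58.5 and 87.4 CPM, Satb1 at 326 and 146, and Slc32a1 at 150.3 and 175. The 9 genes listed for this check summed to 4295 and 3979 CPM in Sst nuclei and to 3854 and 4484 in the Pvalb type, so the order of the 2 classes differed between libraries. Among the 9, Dlx6os1 went the other way from Lhx6, Satb1 and Slc32a1. Its level in Sst nuclei lay below the mean of the Pvalb, Vip and Lamp5 types in both libraries.

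Kcnc2, a fast potassium channel subunit, did not single out Sst nuclei: 2302 and 2099 CPM stood beside 2940 and 3727 in the Pvalb type. Npy was at 198 and 101 CPM, beside 303 and 214 in the Lamp5 type. The 6 excitatory markers summed to 337 and 380 CPM in Sst nuclei against 1736 and 1486 in excitatory nuclei, and all 6 had UMIs. The 5 oligodendrocyte markers summed to 243 and 389 CPM against 6588 and 5714 in oligodendrocytes, and the 5 astrocyte markers to 159 and 301. Of the 6 Vip type markers Htr3a and Crispld2 were at 0 in both libraries, though Crispld2 was also at 0 in the Vip type itself. The 6 striatal markers summed to 1679 and 1713 CPM, of which Pde10a alone gave 1574 and 1650, and 11 and 4 members had at least 3 of the 6. This striatal sum was not particular to Sst nuclei. It was 2650 and 2059 CPM in the Vip type and 1616 and 1461 in excitatory nuclei, and lower than in Sst nuclei in the Pvalb and Lamp5 types. The part of transcripts from other cell types in the results was not tested. With the members of at least 3 striatal markers left out, 104 genes were higher and 110 lower in the comparison that follows.

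**Figure D2:**
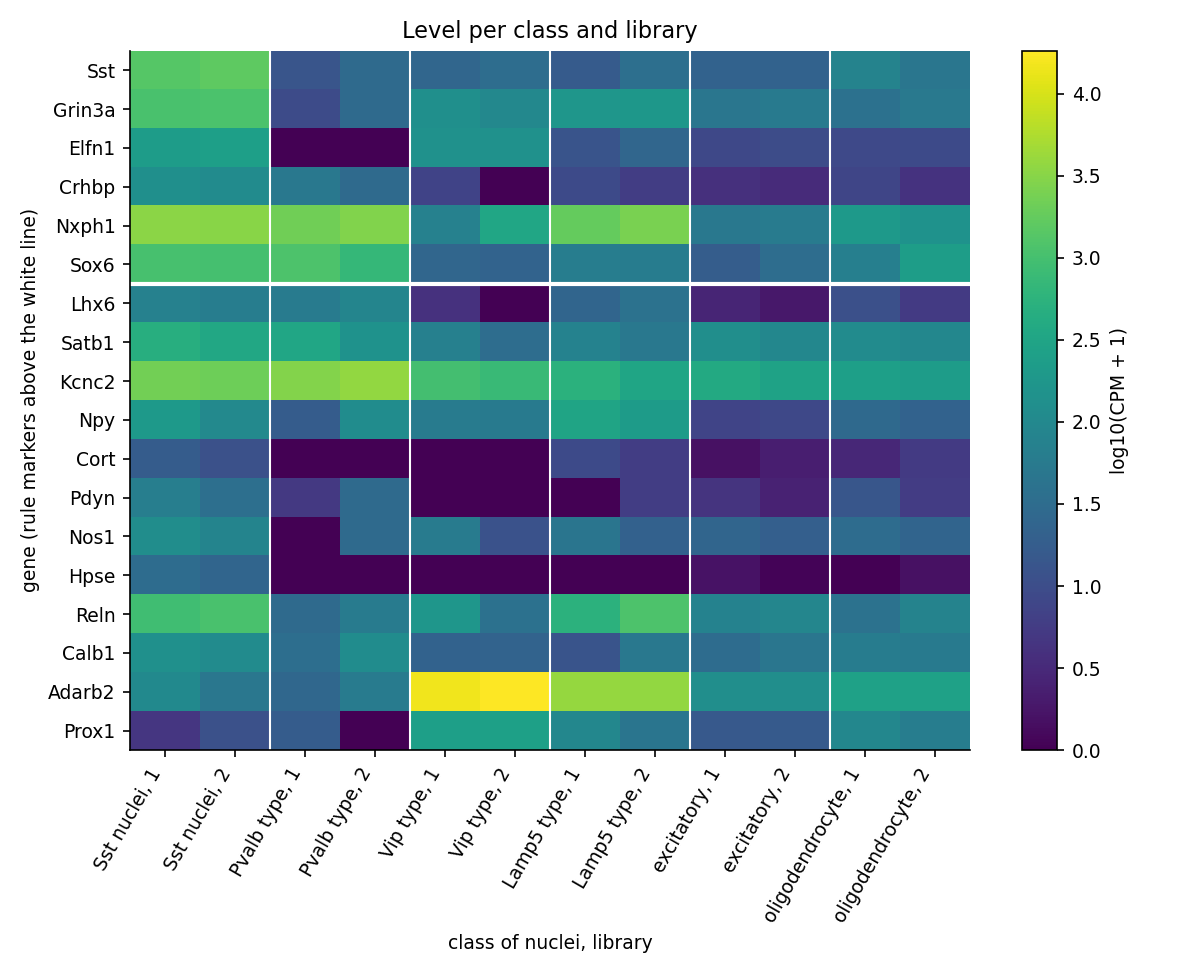
Level of each gene (rows; the 6 rule markers lie above the white line) as log10(CPM + 1) in colour, for 6 classes of nuclei in library 1 and library 2 (columns). Sst, Lhx6, Satb1, Pdyn and Hpse are bright in Sst nuclei relative to the Vip type, and Adarb2 and Prox1 are dark there.

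To place Sst nuclei among interneurons of the same samples, their levels were set against those of 3 other types chosen by Pvalb, Vip or Lamp5 UMIs with at most 1 Sst UMI. These types held 24, 48 and 29 nuclei in library 1 and 5, 29 and 27 in library 2. The ratio was log2 of the CPM in Sst nuclei plus 1 over the mean CPM of the 3 types plus 1, per library, for genes with at least 20 UMIs in Sst nuclei or in the other types in each library. Genes past 2-fold in the same direction in both libraries are called higher or lower. Of 5245 genes, 110 were higher (2.1%) and 110 lower (2.1%), and the median ratio of all genes was -0.01 and 0.02. Of those called, 95 higher and 99 lower genes also had counting intervals apart from the summed other types in both libraries. The intervals come from the same counts that chose the genes, so they add no support to the calls. The Pvalb type of library 2 is thin, since 1 UMI there is worth 29.1 CPM. Without that type 158 genes were higher and 135 lower, of which 86 and 88 were among those called with it.

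The 20 genes with the largest ratios are taken in turn. Hpse, the heparanase that cleaves heparan sulfate (chromosome 5, 100679484 to 100719716), had 34 UMIs (31.0 CPM) in library 1 and 20 UMIs (23.5 CPM) in library 2, and none in the 3 other types. Against a floor of 3 counts over the summed other types it was at least 8.48-fold and 3.28-fold higher. It was near absent from excitatory nuclei as well, at 0.635 and 0.0993 CPM. Klhl14, of the kelch family, also had no UMI in the other types, with 28 and 22 UMIs in Sst nuclei, and was at least 6.98-fold and 3.61-fold higher. Lama4, a laminin chain, stood at 106 and 129 CPM against 3.35 and 6.95, and Masp1, a protease of the complement lectin pathway, at 35.6 and 35.3 against 8.60 and 1.66.

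Several higher genes encode receptors or proteins that act on receptors. Grik3, a kainate receptor subunit, stood at 451 and 537 CPM against 62.3 and 85.9, a log2 ratio of 2.84 and 2.63. Lypd6 and Lypd6b, small membrane-anchored proteins that modulate nicotinic acetylcholine receptors, had log2 ratios of 3.84 and 1.90 and of 4.33 and 2.59. The Pvalb type came next, with 16.7 and 87.4 CPM of Lypd6 and 20.9 and 58.2 of Lypd6b, where the values of library 2 rest on 3 and 2 UMIs. Gabrg1, a GABA-A receptor subunit, stood at 54.8 and 38.8 CPM against 8.73 and 1.66. Kctd8, an auxiliary subunit of GABA-B receptors, stood at 723 and 686 CPM, and the Pvalb type came next with 367 and 262 against at most 75.8 in the Vip and Lamp5 types. Npsr1, the neuropeptide S receptor, had 25 UMIs in each library (22.8 and 29.4 CPM) against 2 and 0 UMIs in the other interneurons, but excitatory nuclei held 20.0025 and 27.5 CPM. Npsr1 thus stood apart among interneurons and not from excitatory nuclei.

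Unc13c, a synaptic vesicle priming factor, stood at 349 and 408 CPM against 34.4 and 19.8. Cdh9, a cadherin, stood at 569 and 586 CPM against 116 and 68.7. Trhde, an ectoenzyme that degrades thyrotropin-releasing hormone, stood at 920 and 959 CPM against 138 and 201, and the Vip type alone reached 303 and 321. Man1a, a Golgi mannosidase, had log2 ratios of 2.46 and 2.58, and Filip1, which binds filamin, of 2.64 and 2.25. Tmcc3, a transmembrane protein, stood at 365 and 358 CPM against 27.2 and 27.7. The transcription factor Klf5 had log2 ratios of 2.44 and 2.82. L3mbtl4 had 2.08 and 3.40, and the kelch gene Klhl1 had 2.04 and 1.95. The 20 genes with the largest ratios, and the 10 lower genes that follow, were past 2-fold in both libraries under each of the 15 alternatives in which the ratio was recomputed. The minimum of 20 UMIs was not applied again in these ratios, nor where single genes are counted over the 15 alternatives below.

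The 10 genes with the lowest ratios included Adarb2 and Prox1, both known from interneurons of the caudal eminence. Adarb2, of the RNA-editing deaminase family, stood at 105 and 47.1 CPM in Sst nuclei against 14586 and 18277 in the Vip type and 3893 and 3701 in the Lamp5 type, and its log2 ratio was -5.86 and -7.26. In the Pvalb type it was at 25.1 and 58.2 CPM, so the contrast lay with the Vip and Lamp5 types. Prox1, a homeobox factor, had 4 and 9 UMIs in Sst nuclei and a log2 ratio of -4.73 and -3.18. The receptor tyrosine kinases Egfr and Kit had log2 ratios of -4.00 and -4.12 and of -3.73 and -4.54. Both reached at least 169 CPM in the Vip and Lamp5 types of each library.

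Semaphorins divided between those types. Sema5b stood at 182 and 212 CPM in the Vip type against at most 7.98 in the Lamp5 type, while Sema5a was highest in the Lamp5 type, at 618 and 473. In Sst nuclei they were at 4.56 and 2.35 CPM and at 30.1 and 44.7. Pde11a and Pde5a, phosphodiesterases that break down cyclic nucleotides, had log2 ratios of -3.10 and -3.60 and of -3.99 and -3.03. Pde5a stood at 188 and 87.4 CPM in the Pvalb type and at 170 and 87.2 in the Vip type. Dpf3, a chromatin remodelling subunit, and Frem1, a matrix protein, completed the 10 with -3.29 and -4.76 and with -3.07 and -4.09. In the Pvalb type Frem1 had 0 UMIs in both libraries, so it was not lower in Sst nuclei than there. Prox1, Egfr, Kit and Dpf3 had 0 UMIs in the thin Pvalb type of library 2. In library 1 they stood there at 16.7, 54.3, 41.8 and 25.1 CPM, above Sst nuclei.

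**Figure D3:**
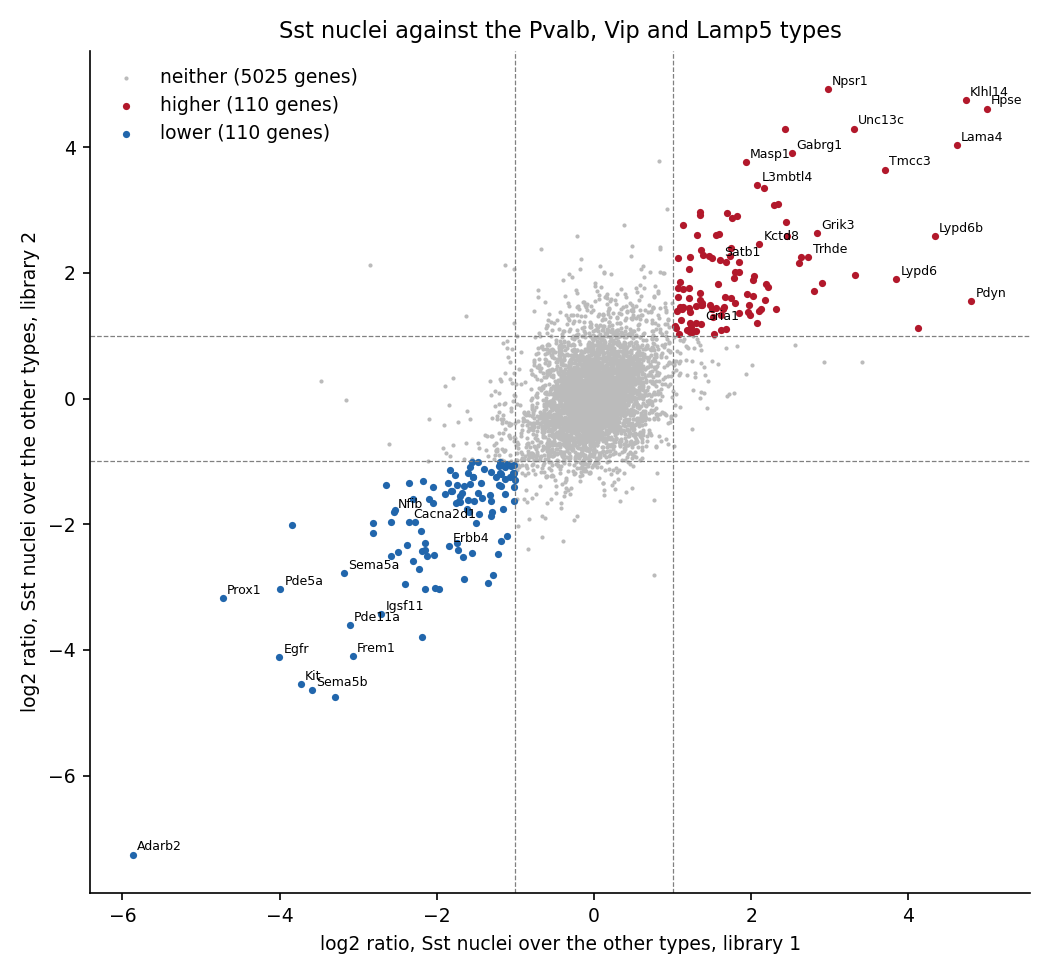
Log2 ratio of each of 5245 genes (points) in Sst nuclei over the mean of the Pvalb, Vip and Lamp5 types, library 1 on the x axis and library 2 on the y axis; dashed lines mark 2-fold, red points are the 110 higher and blue points the 110 lower genes. Hpse, Klhl14 and Lama4 lie far out on the higher side and Adarb2 farthest on the lower side in both libraries.

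The listed genes were then read by role, each list by its counts against the background of 2.1% in either direction and a median near 0. A level in CPM is not per transcript length and is compared here between classes, not between genes. The neuropeptide list, with nitric oxide synthase, had 5 of 16 genes with the minimum, of which 2 were higher and 0 lower, with medians of 1.35 and 0.01. Pdyn, the precursor of dynorphins, stood at 65.7 CPM (51.4 to 82.7) and 35.3 (23.8 to 50.4) against 1.39 and 11.4 in the other types. It had a UMI in 22.3% and 19.4% of Sst nuclei and in 3.08% and 1.66% of excitatory nuclei. Nos1, the neuronal nitric oxide synthase (chromosome 5, 117781032 to 117958840), stood at 124 and 83.5 CPM against 33.8 and 19.98. Vgf, a neurosecretory precursor, stood at 343 and 186 CPM with ratios of 1.35 and 0.01, so only library 1 had it past 2-fold. Npy had ratios of 0.65 and -0.34, and Cck, a peptide of other interneurons, -1.14 and -0.82. Pdyn was thus the 1 peptide gene called, and its call was lost at a mitochondrial limit of 1%.

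The machinery that matures and stores peptides did not stand apart. Of 15 genes 14 had the minimum, 0 were higher and 1 was lower, with medians of -0.08 and -0.07. Cadps, a dense core vesicle priming factor, stood at 1456 and 1333 CPM against 1572 and 1423, and Cpe, the carboxypeptidase that trims peptide precursors, at 317 and 358 against 335 and 376. Pam, which amidates peptides, stood at 1283 and 1101 CPM (ratios 0.52 and 0.62), and Ptprn2, of the dense core vesicle membrane, at 1106 and 1205 (0.23 and 0.41). Pcsk2, a prohormone convertase, had -0.38 and -0.75. Cadps2, the paralog of Cadps, was the lower gene, with -1.60 and -1.19, and was past 2-fold in both libraries under 12 of 15 alternatives.

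The receptors for somatostatin were scarcely detected in the nuclei that make it. None of the 6 genes had the minimum. Sstr1 had 6 and 3 UMIs in Sst nuclei, Sstr2 had 5 and 11, Sstr3 had 4 and 0, and Sstr4 and Sstr5 had none. In excitatory nuclei Sstr2 stood at 15.2 and 9.83 CPM and Sstr3 at 10.4 and 9.03. A single UMI in Sst nuclei is worth 0.913 and 1.18 CPM. Sstr3 therefore lay below its level in excitatory nuclei in both libraries. Sstr2 lay below that level in library 1 and above it in library 2. At this depth the 0 UMIs of Sstr4 in 1095801 and 849903 UMIs allow up to 3.37 and 4.34 CPM.

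Of the interneuron transcription factors 23 of 24 listed were in the data, 10 had the minimum, 1 was higher and 3 lower, with medians of -0.33 and -0.40. Satb1 was the higher gene, with ratios of 1.60 and 2.20, and the Pvalb type came next at 326 and 146 CPM. Lhx6 had ratios of 1.36 and 0.57, with 58.5 and 87.4 CPM in the Pvalb type. The lower genes were Prox1 and the nuclear factors Nfib (-2.55 and -1.80) and Nfix (-2.03 and -2.48). Npas3 stood at 1725 and 1864 CPM (0.37 and 0.69), Zeb2 at 609 and 691 (-0.59 and -0.36) and Mef2c at 596 and 699 (-0.52 and -0.46). For GABA release and uptake, 4 of 6 genes had the minimum and none passed 2-fold in both libraries, with medians of -0.15 and -0.55. Slc32a1 had ratios of 0.20 and 0.23, and Abat, which breaks down GABA, -0.24 and -0.30.

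Of 17 ionotropic glutamate receptor genes 15 had the minimum, 3 were higher and 0 lower, with medians of 0.00 and 0.28. Gria1, an AMPA receptor subunit, stood at 3825 and 3886 CPM against 1487 and 1709 (1.36 and 1.18), and Grik1, a kainate subunit, at 1936 and 1833 against 814 and 874 (1.25 and 1.07). Grik1 was past 2-fold under 8 of 15 alternatives, so its call lies at the limit, and Gria1 was past it under 14. Grik2 (-0.19 and 0.28), Grin2a (-0.17 and -0.21) and Grik4 (-0.70 and -0.97) were not called.

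The metabotropic receptors had 6 of 7 genes with the minimum, with medians of 0.50 and 0.67. Grm5 stood at 2457 and 2490 CPM (0.47 and 0.61) and Grm7 at 2051 and 2507 (0.67 and 0.51). Grm4 had 0.54 and 1.48, and Grm8 -1.16 and -0.26.

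GABA receptor genes had 13 of 14 with the minimum, with medians of -0.22 and -0.31. Gabrg3, a GABA-A receptor subunit, was lower, at 954 and 934 CPM against 2051 and 1929. Gabrg3 was past 2-fold under 9 of 15 alternatives. Gabrg1 was higher, as given above. Gabra2 had ratios of 0.77 and 1.21, Gabrb1 0.25 and 0.19, and Gabbr2, of the GABA-B receptor, -0.58 and -0.65.

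Among receptors for acetylcholine, monoamines and peptides, 10 of 33 genes had the minimum, with 2 higher, 2 lower and medians of -0.45 and 0.15. Both higher genes are muscarinic receptors. Chrm3 stood at 1352 and 1766 CPM against 549 and 763 (1.30 and 1.21), and Chrm2 at 263 and 112 against 61.4 and 48.0 (2.08 and 1.20). The lower genes were Adra1b, an adrenergic receptor (-1.74 and -2.30), and Cnr1, the cannabinoid receptor known from Cck interneurons (-1.57 and -1.36). Adra1a (-0.99 and -1.60) and the serotonin receptor Htr2c (-1.18 and 0.28) passed 2-fold in 1 library each.

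Channel genes showed lower calls for potassium channels and mixed calls for calcium channels. Of 32 potassium, sodium and pacemaker genes 30 had the minimum, 0 were higher and 6 lower, with medians of -0.15 and -0.14. Kcnq5, which carries the M-current, stood at 469 and 721 CPM against 1644 and 2007, and Kcnn2, a calcium-activated channel, at 114 and 129 against 427 and 372. The other lower genes were Kcnh1, Kcnh7, Kcnt2 and Kcnip4, a subunit that binds Kv4 channels. Kcnip4 stood at 2910 and 4077 CPM against 6609 and 9348. Kcnd2, a Kv4 channel, had 0.62 and 0.79, Kcnc2 0.63 and 0.39, Kcnma1 0.24 and -0.05 and Kcnh5 0.49 and 0.96. Kcnh1 was past 2-fold under 10 of 15 alternatives.

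Calcium channels had 12 of 14 genes with the minimum, 2 higher, 1 lower and medians of 0.27 and 0.22. Members of one family of auxiliary subunits went opposite ways. Cacna2d3 stood at 1678 and 2014 CPM against 683 and 725 (1.30 and 1.47), whereas Cacna2d1 stood at 149 and 232 against 764 and 906 (-2.35 and -1.96). Cacng3, which escorts AMPA receptors, was the other higher gene (1.80 and 1.52). The pore subunits Cacna1a (0.32 and 0.15), Cacna1c (0.14 and 0.29) and Cacna1d (-0.55 and -0.35) and the subunit Cacnb4 (-0.05 and 0.05) were not called.

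Among the 29 trans-synaptic adhesion genes with the minimum, of 31 listed, 1 was higher and 1 lower, with medians of -0.07 and -0.13. Nxph2, a relative of the rule marker Nxph1, had 23 UMIs in each library and ratios of 2.10 and 1.39, past 2-fold under 12 of 15 alternatives, and Igsf11 had -2.71 and -3.43. Nrxn3, a neurexin, stood at 13160 and 14264 CPM (0.56 and 0.77). Cntnap2 (-0.09 and -0.13), Tenm2 (0.51 and 0.68) and Lrrtm4 (-0.05 and -0.30) were not called. Tenm3 had 0.93 and 1.19, and Tenm1 -0.53 and -1.22.

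The neuregulin receptor Erbb4 was lower, at 2279 and 2025 CPM against 8215 and 10286 (-1.85 and -2.34), while its ligand Nrg3 was level at 5695 and 6437 (0.10 and 0.15). Nrg1 had -0.51 and -0.48 and Nrg2 -0.63 and -0.51. Of 5 genes in that list 4 had the minimum, 0 were higher and 1 lower, with medians of -0.57 and -0.49. Immediate early genes had 2 of 12 with the minimum and none called, with medians of 0.09 and -0.06. Egr1 stood at 43.8 and 37.7 CPM against 35.9 and 37.5, and Nr4a1 at 34.7 and 32.9 against 37.2 and 36.0. Perineuronal net and matrix genes had 3 of 9 with the minimum and none called, with medians of 0.11 and -0.06. Tnr stood at 539 and 669 CPM (0.11 and 0.45), Adamtsl1 at 189 and 105 (0.71 and -0.06) and Ncan at 33.8 and 37.7 (-0.25 and -0.73).

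**Figure D4:**
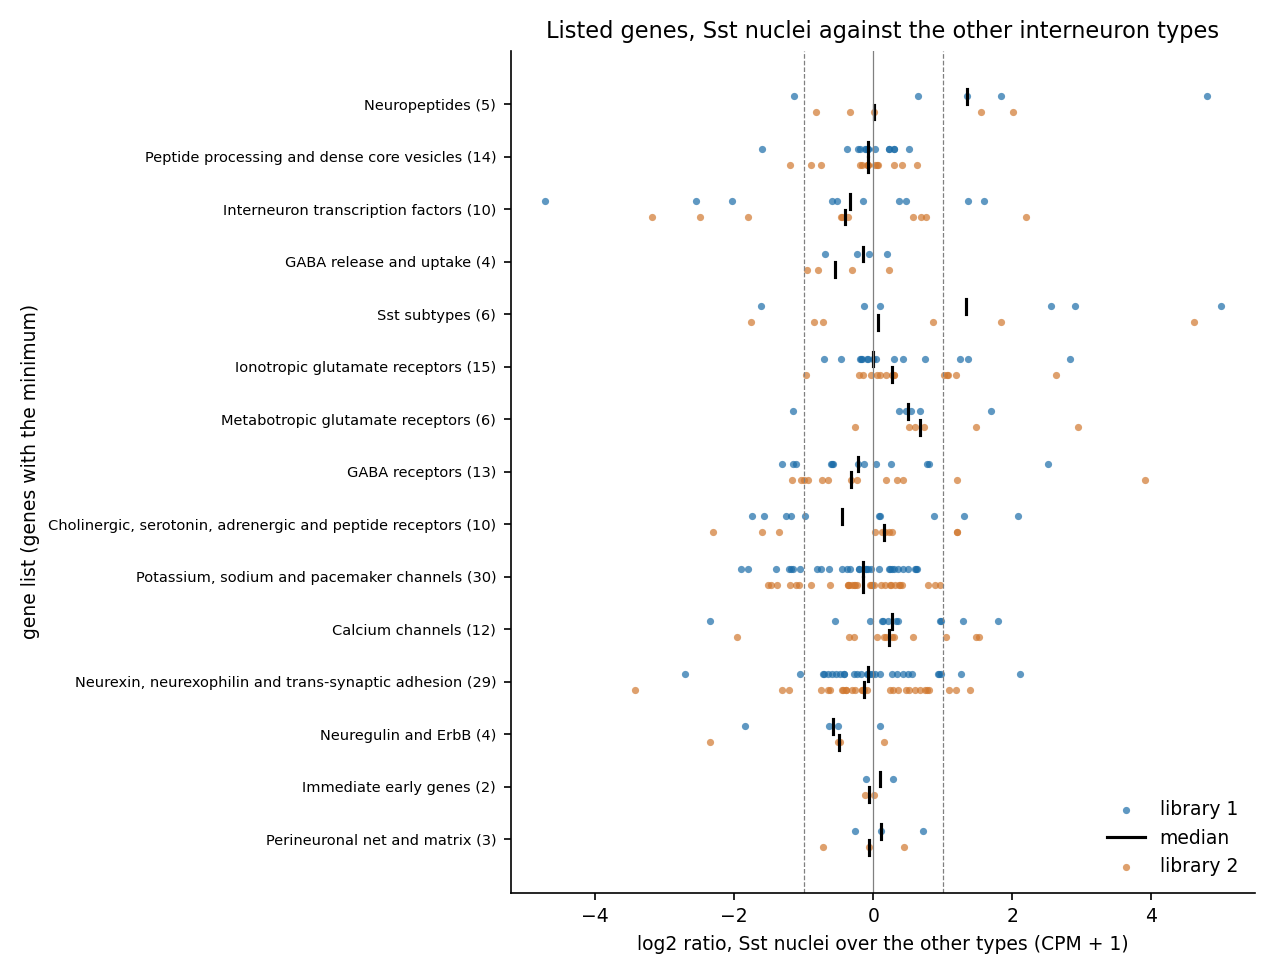
Log2 ratio (x axis) of each listed gene with the minimum (points) in Sst nuclei over the other interneuron types, by list (rows, with the number of genes) and library (colours); black bars are medians and dashed lines mark 2-fold. Apart from the neuropeptides and subtype genes in library 1, the medians lie between -0.57 and 0.67.

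Within the Sst nuclei, subtype genes divided the members. Of 24 subtype genes 6 had the minimum, 2 were higher (Hpse and Tacr1), 1 was lower (Necab1, -1.62 and -1.76), and the medians were 1.33 and 0.07. Calb1, the calbindin gene of many Martinotti cells, had ratios of 2.56 and 0.85 and a UMI in 55 of 130 and 44 of 98 nuclei, against 21.9% and 30.5% of excitatory nuclei. Calb2, the calretinin gene, was found in 3 and 2 nuclei, 2.31% and 2.04%, beside 1.57% and 1.97% of excitatory nuclei, which is the background level. Npy was detected in 57 and 46 nuclei (43.8% and 46.9%) against 5.98% and 7.25% of excitatory nuclei. Cort, the cortistatin gene, was detected in 11 and 8 nuclei (8.46% and 8.16%) against 0.543% and 1.35%. Moxd1, a monooxygenase-like gene, was detected in 34 and 37 nuclei (26.2% and 37.8%) against 2.78% and 3.01%. With every nucleus thinned to 3000 UMIs the shares were 24.0% and 24.5% for Npy and 14.7% and 24.5% for Moxd1, against 1.73% and 2.49% and 1.41% and 0.976% in excitatory nuclei.

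Reln, a secreted matrix glycoprotein, was present in 93 of 130 and 78 of 98 Sst nuclei (71.5% and 79.6%), against 21.6% and 26.7% of excitatory nuclei. Its level was 910 CPM (854 to 968) and 1087 (1018 to 1160). The Lamp5 type had 554 and 1176, so the order of these 2 types differed between libraries. Nuclei with no Reln UMI numbered 37 and 20, those with 1 to 4 numbered 30 and 23, and those with 5 or more numbered 63 and 55. Median depths of these bands lay between 7815.5 and 8371 UMIs.

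Hpse and Pdyn kept to the nuclei with Reln. All 19 and 10 nuclei with a Hpse UMI also had Reln, and of the nuclei without Hpse 66.7% and 77.3% did. Of the nuclei with Pdyn 28 of 29 and 19 of 19 had Reln, against 64.4% and 74.7% of those without. Across the bands of 0, 1 to 4 and 5 or more Reln UMIs, Hpse stood at 0, 13.03 and 55.5 CPM in library 1 and at 0, 0 and 39.8 in library 2. Nos1 showed the opposite order in both libraries, with 372, 78.2 and 7.16 CPM and with 236, 113 and 23.9. The bands are a description over nuclei of the same pool and not a test.

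Nos1 was concentrated in a few nuclei. It had no UMI in 104 and 89 Sst nuclei and 1 or 2 UMIs in 17 and 5. Any Nos1 UMI was also found in 15.9% and 13.4% of excitatory nuclei, so a single UMI did not set a nucleus apart. No nucleus held 3 to 5 Nos1 UMIs. The remaining 9 and 4 nuclei had 6 to 32 in library 1 and 10 to 22 in library 2. These 13 nuclei are called Nos1-rich, by a limit of 5 UMIs set after the values were seen, and they held 115 of 136 and 66 of 71 Nos1 UMIs of the members. They were 6.92% (3.21 to 12.7) and 4.08% (1.12 to 10.1) of Sst nuclei, whereas 0.121% and 0.207% of excitatory nuclei and 1 Vip type nucleus of library 1 reached the limit. Their median depth was 8189 UMIs against 8028 in the other 215, and 2 of the 13 had at least 3 striatal markers against 13 of the 215.

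Somatostatin itself was alike in both sets, at 1457 CPM (1235 to 1707) in the Nos1-rich nuclei and 1478 (1423 to 1534) in the others over both libraries. Npy, which long-range Sst cells are known to make, was found in 13 of 13 Nos1-rich nuclei with 1 to 17 UMIs each, and in 90 of the other 215. Its levels were 1015 and 385 CPM against 139 and 90.4. In library 2 the 4 nuclei had 1, 1, 2 and 8 Npy UMIs, so 1 nucleus held most of them, and in library 1 a single other nucleus held 47 of 142. Chodl, a marker known for the same long-range cells, was found in 8 of 13 with at most 3 UMIs, and in 4 of the other 215. Tacr1, the substance P receptor, had 0, 0, 1, 2, 3, 4, 12, 12 and 17 UMIs in the 9 nuclei of library 1 and 1, 1, 6 and 13 in the 4 of library 2. It stood at 690 and 674 CPM, against 10.8 and 14.7 in the others. Chrm2 had 4 to 41 UMIs in each of the 13 nuclei, and 64 of the others had any. Its levels were 1922 and 1541 CPM against 143 and 57.4. The intervals of these levels in the 2 sets did not overlap in either library for Npy, Tacr1 and Chrm2. They cover counting error and not the spread between nuclei. For Npy in library 2 the level of the Nos1-rich nuclei rests mostly on 1 nucleus.

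The calls of Nos1, Tacr1 and Chrm2 against the other interneuron types were lost without the Nos1-rich nuclei. For Nos1 this followed from the selection, because these nuclei were chosen by Nos1 and the other types kept all their nuclei. Without these 13 nuclei the ratios were -0.69 and -1.56 for Nos1, 0.61 and 0.49 for Tacr1 and 1.20 and 0.25 for Chrm2. Of the 110 higher genes 100 stayed called without them, and 6 no longer had the minimum.

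Further genes that stood out in the Nos1-rich nuclei were named after their values were seen. Over both libraries Ntn1, a guidance cue, stood at 419 CPM against 6.52, Slc4a4, a bicarbonate transporter, at 1276 against 60.3, Trpm3, a cation channel, at 2847 against 305, and Man1a at 2133 against 424. The rule marker Sox6 had 11 to 43 UMIs in each Nos1-rich nucleus, with a median of 25, while the other nuclei had a median of 6. Elfn1, another rule marker, was in 3 of 13 Nos1-rich nuclei and 149 of the other 215, and Grin3a was in all 13 and in 201. The rule markers thus differed between the sets in both directions, although every one of these nuclei met the same rule.

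Other genes were low there. Kif26b, a kinesin family member, had 0 UMIs in 105040 in the Nos1-rich nuclei and 390 UMIs (212 CPM) in the others, at least 7.42-fold lower against a floor of 3 counts over the set. Galntl6, of the mucin-type glycosylation enzymes, had 0 to 6 UMIs in each of the 13 nuclei, and the others had a median of 41. Reln had 1 UMI in all in the 9 nuclei of library 1, and 0, 0, 1 and 6 UMIs in the 4 of library 2, and the others had a median of 6. Thrb, a thyroid hormone receptor, stood at 85.7 CPM against 1076, Npas3 at 152 against 1879 and Unc13c at 28.6 against 394. Moxd1 had no UMI in the 13 nuclei and 165 in the others, at least 3.14-fold lower. Pdyn had 1 UMI there and Calb1 had 2. Hpse had 0, but its level in the others (29.3 CPM) is close to the floor of 28.6, so no lower level was detectable.

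**Figure D5:**
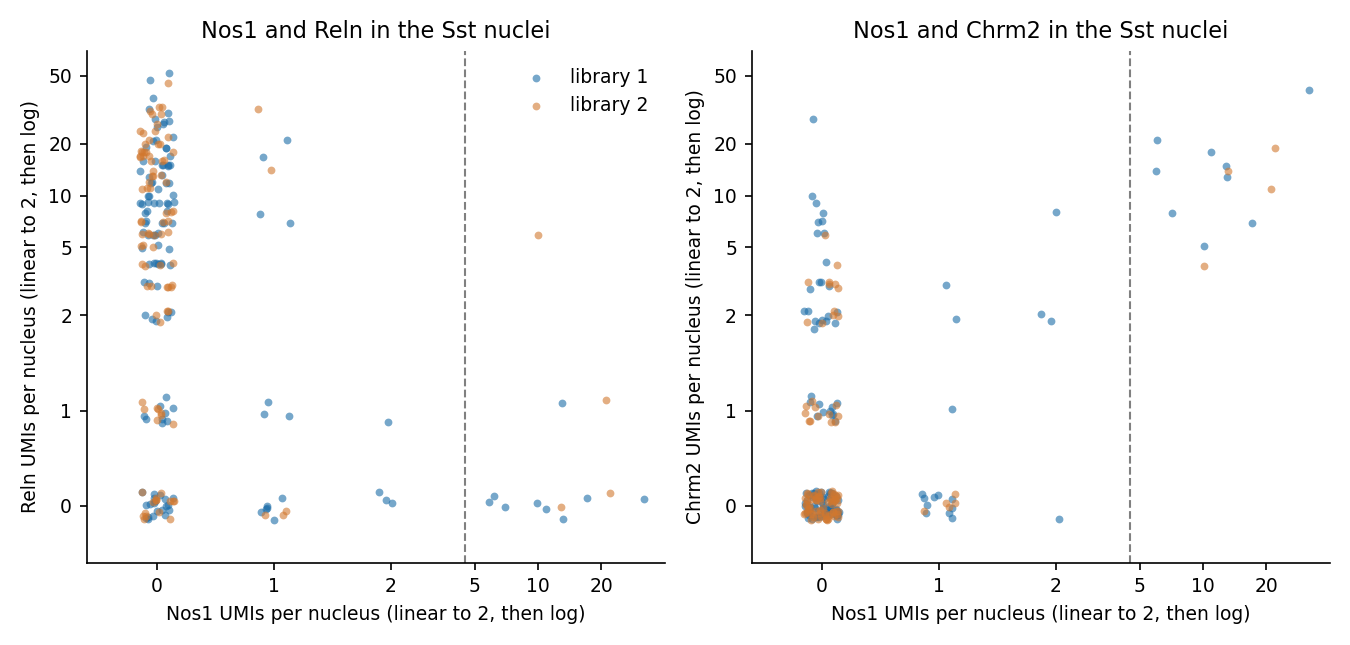
Nos1 UMIs per nucleus (x axis) against Reln (left) and Chrm2 UMIs (right, y axes) in the 228 Sst nuclei, coloured by library; axes are linear to 2 and then logarithmic, points are shifted slightly at random so that equal counts can be seen, and the dashed line marks the limit of 5 Nos1 UMIs. The 13 nuclei right of the line hold 0 to 6 Reln UMIs and 4 to 41 Chrm2 UMIs.

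Between the libraries, the median log2 ratio of library 1 over library 2 in Sst nuclei was 0.21 over 7031 genes, and 0.23 in excitatory nuclei. Levels are scaled to a common total, so a median above 0 is not a rise of all genes. A gene needed at least 20 UMIs in either library, and Sst nuclei of library 1 held more UMIs (1095801 against 849903). Genes thus entered more easily through library 1, and the part of this in the counts was not tested. Of the 7031 genes 560 (7.96%) were past 2-fold higher in library 1 and 209 (2.97%) in library 2. Of the 560, 126 were also past 2-fold the same way in excitatory nuclei, and of the 209, 140 were. Over all 14096 genes with the minimum in excitatory nuclei, 586 were past 2-fold higher in library 1 and 753 in library 2. Unnamed predicted or antisense genes were 132 of the 209 and 30 of the 560, against 417 of all 7031. Of 176 listed genes with the minimum, 5 were past 2-fold higher in library 1 and 1 in library 2. Chrm2 had 288 UMIs in library 1 and 95 in library 2 (1.23). The 9 and 4 Nos1-rich nuclei held 142 and 48 of these. The other Sst nuclei alone stood at 143 and 57.4 CPM, so the difference was also present without the Nos1-rich nuclei. The nuclear receptors Nr2f1 and Nr2f2 had 1.01 and 1.14, and Bcan, a matrix proteoglycan, 1.09. The potassium channel gene Kcnn3 was higher in library 2, with 16 and 30 UMIs (-1.22).

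The genes with the largest ratios between libraries rested on few UMIs. In library 1 these were Gpaa1, Bcl6, Trim8, Sema3d, Cdk9 and Col6a1, with 20 to 33 UMIs against 1 to 3 in library 2. In library 2 they were Cp, Filip1l, Fbxl7, Loxl2, Lrmda and Lrtm1, with 23 to 62 UMIs against 2 to 10 in library 1. Sst itself differed by -0.23 and the 5 other rule markers by -0.18 to 0.21, and none of the 6 reached 2-fold. Gad1 stood at 293 CPM (262 to 327) in library 1 and 147 (122 to 175) in library 2, and Gad2 at 471 and 346; both are part of the rule. Age and library preparation cannot be told apart in these values, because each library is 1 pool and neither is tied to an age.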

How the data were processed

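The authors deposited 1 matrix of raw UMI counts per gene and barcode for both samples (30905 genes, 17501 barcodes), made with Cell Ranger 3.1.0 per the file headers. Cell Ranger 2.0.1, Seurat 3.1, R 4.0.2 and the build mm10 are named per the submitters' processing notes; the conflict between Cell Ranger versions was not settled. The sources used here name no gene annotation, intron setting or cell calling. The members, gene lists and tests were chosen with earlier results of these data known.

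Per library, UMIs of all nuclei in a class were added up and scaled to CPM (Python 3.11.15, numpy 2.4.6, scipy 1.17.1). The other types needed at least 2 UMIs of Pvalb, Vip or Lamp5, at most 1 UMI of Sst and of the other type genes tested, the same mitochondrial, Gad and Slc17a7 limits, and fewer than 3 of 6 striatal markers. Excitatory nuclei had at least 3 Slc17a7 UMIs and no Gad1 or Gad2 UMI. Oligodendrocytes, a gate added after the data were seen, had at least 3 of 5 markers and no Gad1, Gad2 or Slc17a7 UMI. Genes used in gates and mitochondrial genes were left out of the ratios. Genes named are the 6 rule markers, list members with at least 20 UMIs (always the 4 with the highest CPM and the 2 largest and 2 smallest ratios per list), the 20 largest and 10 smallest called ratios by the library nearer 0, passing over unnamed predicted genes, and the 6 largest each way between libraries; any other gene was chosen after its values were seen. Scrublet (scanpy 1.11.5) marked 0 and 2 barcodes and so had not worked; a score limit of 0.2, which 1 and 3 Sst nuclei reached, is an alternative, and no doublets were otherwise removed. Tested on simulated counts of 4937 genes, the ratio called 55 of 60 genes raised 3-fold and 60 of 60 raised 6-fold. It called 38 of 40 lowered 6-fold and 1 of 4779 unchanged. Each simulated nucleus was drawn from 1 profile per library, with no spread between nuclei of a class beyond counting error. The altered genes had at least 40 expected UMIs in Sst nuclei of each library. These counts therefore do not cover rarer genes or real nuclei that differ from each other. Listed gene Bcl11b was not analysed here. Some genes that the naming rule selects are not reported here, although counts and medians over lists include them.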

Additional observations from a re-analysis of the deposited data

How the results depend on the processing

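The rule and the low-count minimum moved the counts most. With a minimum of 5 Sst UMIs, Sst nuclei of library 1 were 1.12% of barcodes within the mitochondrial limit and 48.7% of interneuron nuclei. With Slc17a7 at 0 they were 0.978% and 63.2% in library 1, and 0.834% of barcodes in library 2. A mitochondrial limit of 1% gave 1.84% and 1.47% of barcodes, since the denominator shrank too. A minimum of 5 UMIs gave 228 higher and 243 lower genes against the other types, and a minimum of 50 UMIs gave 71 lower genes; both change how many genes are compared. Between libraries, a minimum of 50 UMIs left 152 and 79 genes past 2-fold, and 5 CPM added left 320 higher in library 1. The remaining 55 recomputed values of shares and counts lay within the interval of the value given or within 1.5 times of it. The genes called changed too. Of the 110 higher and 110 lower genes, 64 and 64 stayed called with thinned nuclei, where 36 and 36 lost the minimum. With Slc17a7 at 0, 73 and 70 stayed, and 15 and 24 lost the minimum. At the 1% mitochondrial limit 80 and 80 stayed, and at 50 UMIs 78 and 71. Under every other alternative at least 86 and 85 stayed. No gene called in one direction was called in the other under any alternative. List medians moved by over 1.5 times in 4 recomputed values, all in library 1, and not in 446 others: the neuropeptides at 1.94 and the immediate early genes at -0.50 with nuclei thinned to 3000 UMIs, and the neuropeptides at 0.14 and the subtype genes at 0.34 without the Nos1-rich nuclei. Of the listed calls, Cacna2d3, Cacng3, Chrm3 and Kcnh7 were lost without the Pvalb type, Gria1 with at least 1 Pvalb UMI for that type, Pdyn with the 1% mitochondrial limit, Kcnip4 with that limit or Slc17a7 at 0, Kcnt2 with Slc17a7 at 0, Chrm3 also with the other interneurons pooled, Kcnh7 also with a minimum of 2 Sst UMIs, and Cnr1 with thinned nuclei. Nxph2 was lost with the 1% limit, with Slc17a7 at 0 and with at least 1 Pvalb UMI for the Pvalb type. Cadps2, Grik1, Gabrg3 and Kcnh1 were lost under 3 or more alternatives each. Alternatives of the Pvalb type, the striatal markers and the Nos1-rich nuclei were chosen after seeing the data. No paired analysis was possible because the result comes from no test and each age is 1 pool; leaving out a replicate was not possible either. Depth limits the Pvalb type of library 2 most (34341 UMIs).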
